A study of Mus musculus with 2 samples.

Results

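Ccl3/Ccl4-low mature neutrophils are neutrophils of mouse periodontal tissue that carried little transcript of the chemokine genes *Ccl3* and *Ccl4* and little of the granule genes *Camp*, *Ngp* and *Ltf*. They were chosen by their own transcript counts in 2 single-cell RNA-sequencing libraries. A cell entered the neutrophil gate when *S100a8* and *S100a9* together held at least 2% of its unique molecular identifiers (UMIs, 1 per captured transcript) and at least 2 of the 6 genes *Csf3r*, *Cxcr2*, *Retnlg*, *Hdc*, *Il1r2* and *Mmp8* had a UMI. Gated cells with fewer than 1 UMI per 1000 of *Camp*, *Ngp* and *Ltf* together and fewer than 1 per 1000 of *Ccl3* and *Ccl4* together were the members. They numbered 129 of the 1819 cells kept. The ligature-induced periodontitis (LIP) library held 114 of 936 (12.2%, exact 95% binomial interval 10.2–14.4) and the control library 15 of 883 (1.70%, 0.954–2.79).

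Both libraries came from wild-type C57BL/6 mice aged 8 weeks, and each held live cells from gingiva and from the surface of the alveolar bone, pooled over 5 mice. The LIP mice carried a ligature around the tooth for 7 days, and the control mice received no treatment. No map from cells to mice was available here, so each condition was 1 sample and no test between conditions or cell classes was possible. All intervals below are 95% intervals that cover counting error only; they do not cover the spread between cells or between mice.

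Neutrophils mature in the bone marrow, where they fill azurophil, specific and gelatinase granules in that order and stop transcribing most granule genes before they leave for the blood. In inflamed tissue they transcribe cytokines and chemokines, among them *Il1b*, whose product drives bone loss around teeth, and the neutrophil attractant *Cxcl2*. CCL3 and CCL4 attract monocytes, macrophages and lymphocytes, and the level of their transcripts differs widely between tissue neutrophils. In the gum, neutrophils guard the tooth surface and are recruited in large numbers in periodontitis.

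The members were compared with the other neutrophils of the same gate. Ccl3/Ccl4-high cells met the same granule limit but reached 1 UMI per 1000 of *Ccl3* and *Ccl4*; there were 163 in LIP and 8 in control. Granule-gene-rich cells reached 1 per 1000 of *Camp*, *Ngp* and *Ltf*; there were 46 in LIP and 29 in control. Members were therefore 35.3% of the 323 gated cells in LIP and 28.8% of the 52 in control. Of the cells below the granule limit, members were 41.2% of 277 in LIP (35.3–47.2) and 65.2% of 23 in control (42.7–83.6), so these intervals overlapped.

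The label was checked against genes the rule did not use. Of the 114 LIP members, *Clec4d*, a C-type lectin receptor of myeloid cells, had a UMI in 107, *Trem1*, an activating myeloid receptor, in 98, and *Mmp9*, the gelatinase of tertiary granules, in 84. The counts of *Clec4d* and *Trem1* alone do not set neutrophils apart from other myeloid cells. *Ly6g*, the surface antigen that defines mouse neutrophils, had a UMI in only 15 of 114 and in 5 of the 15 control members. The azurophil protease genes *Elane* and *Ctsg* and the cycling genes *Mki67* and *Cdk1* were at 0 UMIs in both libraries' members, and *Mpo* had 1 UMI in LIP and 0 in control. Other genes of these lists were found. The azurophil list had 5 of 8 genes with a UMI, with 25 UMIs in 15 LIP members. The cell-cycle list had 8 of 10, with 171 UMIs in 78 LIP members. The 4 markers given for these cells (*S100a8*, *Retnlg*, *Csf3r* and *Cxcr2*) were all part of the gate; in LIP they had a UMI in 114, 98, 103 and 91 members.

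The limit on *Ccl3* and *Ccl4* cut through a continuous range in LIP. The LIP members nearest to it had 0.981, 0.969 and 0.937 UMIs per 1000 and the cells just outside 1.03, 1.05 and 1.08. There were 17 members between 0.5 and 1 per 1000 and 27 Ccl3/Ccl4-high cells between 1 and 2. Of the 114 LIP members 73 had no UMI of either gene, as had 12 of the 15 control members, whose highest value was 0.245. On the granule side the LIP members ended at 0.617 per 1000 and the next cell had 1.02, while the control members ended at 0.996 and the next cell had 1.02.

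**Figure D1:**
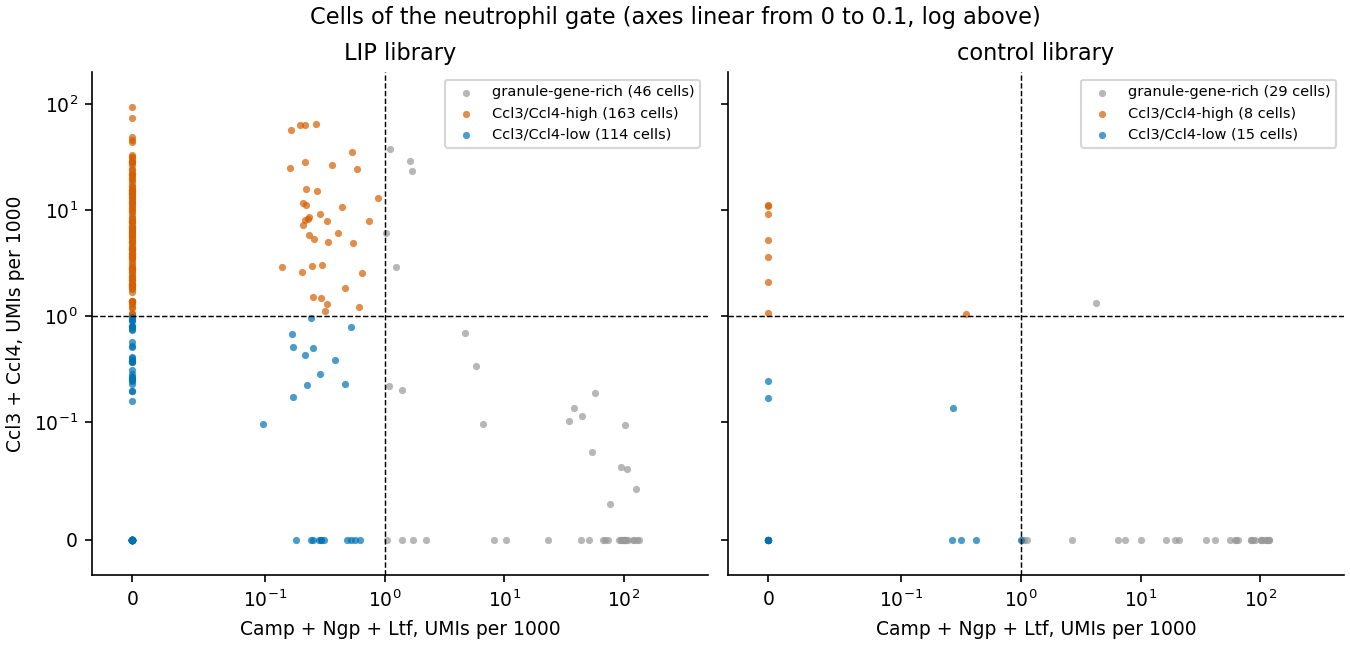
Choice of the members. Each point is a cell of the neutrophil gate in the LIP or control library, placed by its UMIs of Camp plus Ngp plus Ltf per 1000 (horizontal) and of Ccl3 plus Ccl4 per 1000 (vertical), with dashed lines at the limit of 1 and axes linear from 0 to 0.1 and logarithmic above. In LIP the 17 members between 0.5 and 1 and the 27 cells between 1 and 2 on the chemokine axis join without a gap.

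Members had a median of 3506.5 UMIs (531–16893) and 1052 genes in LIP, where 11 had fewer than 1000 UMIs, and a median of 3749 UMIs (2571–7391) in control. The Ccl3/Ccl4-high cells had a similar median (3819 and 3253.5), and the granule-gene-rich cells a larger one (11430 and 13822). Members held 3.92% of the 10560109 UMIs kept in LIP and 0.480% of the 13407122 kept in control. Ribosomal protein genes took a median of 3.23% of a member's UMIs in LIP and 3.58% in control, and mitochondrial transcripts 0.804% and 0.520%.

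A pair of LIP members carried RNA of another cell type. In a barcode of 16893 UMIs, 13783 (81.6%) were erythroid and only 2.56% were *S100a8* and *S100a9*. Another barcode of 10325 UMIs held 52 of the 55 T cell marker UMIs of all LIP members, 222 of their 224 *Il17a* UMIs and 52 of *Ctla4*, with 2.31% *S100a8* and *S100a9*. Both met the rule and stay in every value below unless "without the mixed barcodes" is written. Among LIP members the macrophage genes *C1qa*, *C1qc*, *Ms4a7*, *Mrc1* and *Fcgr1*, the B cell genes *Cd79a*, *Cd79b* and *Ms4a1* and the keratinocyte genes *Krt15*, *Perp* and *Epcam* were at 0. *Ighm*, an immunoglobulin heavy chain gene on the B cell list, had 31 UMIs in 19 LIP members, at most 3.74 per 1000 in a cell, and 20 UMIs in 15 Ccl3/Ccl4-high cells (log2 ratio 1.18, 0.32–2.06). The other 7 keratinocyte genes had 98 UMIs in 64 LIP members. The summed macrophage list reached at most 1.87 per 1000 in a LIP member and 1.79 in a Ccl3/Ccl4-high cell, and the keratinocyte list 1.52 and 2.78. A doublet caller marked 1 LIP and 4 control barcodes, none of them a member. The 2 libraries shared 2 barcodes, neither of them a member.

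The stretches of 250 bases before the start of 4 genes on which the members turn are shown next, because these genes were low by the rule (*Ccl3*), lower (*Cxcl2*), nearly level (*Il1b*) or higher (*Retnlg*) in members than in Ccl3/Ccl4-high cells of LIP. Sequences and starts are those of RefSeq on GRCm38.p6, written 5′ to 3′ on the strand of the gene; *Ccl3* lies at chr11:83649379-83649628 (minus strand), *Cxcl2* at chr5:90903649-90903898 (plus), *Il1b* at chr2:129371140-129371389 (minus) and *Retnlg* at chr16:48872358-48872607 (plus). Capitals mark matches, on either strand, to the NF-kappaB decamer, the C/EBP pattern TTNNGNAAT and the TATA box TATAAA.
Ccl3: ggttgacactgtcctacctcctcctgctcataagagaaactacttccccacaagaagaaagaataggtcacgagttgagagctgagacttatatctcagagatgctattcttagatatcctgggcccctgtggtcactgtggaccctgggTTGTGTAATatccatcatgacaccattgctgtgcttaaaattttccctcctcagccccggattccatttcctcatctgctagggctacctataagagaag
Cxcl2: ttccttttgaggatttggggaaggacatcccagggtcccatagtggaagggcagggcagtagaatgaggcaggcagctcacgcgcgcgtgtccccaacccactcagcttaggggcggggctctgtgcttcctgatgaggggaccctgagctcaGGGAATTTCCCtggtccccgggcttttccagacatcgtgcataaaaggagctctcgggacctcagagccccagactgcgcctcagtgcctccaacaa
Il1b: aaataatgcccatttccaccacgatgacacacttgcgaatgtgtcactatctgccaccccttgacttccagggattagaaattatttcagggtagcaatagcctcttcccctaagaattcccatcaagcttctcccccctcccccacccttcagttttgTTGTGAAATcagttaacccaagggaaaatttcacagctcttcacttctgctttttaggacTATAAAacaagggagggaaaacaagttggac
Retnlg: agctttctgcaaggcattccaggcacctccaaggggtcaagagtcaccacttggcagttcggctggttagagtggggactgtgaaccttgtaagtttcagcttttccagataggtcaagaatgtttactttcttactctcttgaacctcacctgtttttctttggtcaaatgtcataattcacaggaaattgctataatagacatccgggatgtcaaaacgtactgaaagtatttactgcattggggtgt

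*Cxcl2* held the decamer on both strands at the same place, 97 to 87 bases before the start. *Ccl3* held a C/EBP match 100 to 92 bases before its start, and *Il1b* held a C/EBP match 91 to 83 and a TATA box 31 to 26 bases before its start. None of the 3 patterns was found in the *Retnlg* stretch. Over 27025 RefSeq stretches of the same length, 7.01% held the decamer, 10.3% the C/EBP pattern and 13.0% TATAAA, so such matches are not rare. A match is a run of letters and not evidence of binding. The corresponding stretches of *Ccl4* and *Osm* were not used here.

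In LIP, few of the genes compared were 2-fold apart between members and Ccl3/Ccl4-high cells, beyond the 2 chemokines that separated them. Levels are UMIs summed over the cells of a class per 1000000 UMIs of that class (CPM), which count transcript ends and are not scaled by length. A gene was called when its levels differed 2-fold or more, among genes with at least 50 UMIs over both classes. Of 1896 such genes, 61 (3.22%) were 2-fold higher in members and 67 (3.53%) 2-fold lower, with a median log2 ratio of 0.11. After centring the ratios on that median the split was 41 higher and 90 lower. The count depends on the minimum of UMIs: at 20 UMIs, 385 of 3274 genes were 2-fold apart. The interval of the ratio lay above 0 in 379 of the 1896 genes, below 0 in 271 (14.3%) and held 0 in 65.7%, which is the background for the list counts that follow. Genes higher in members included *Ifitm6* and the gate genes *Retnlg* (resistin-like) and *Mmp8* (a collagenase). Genes lower included the chemokine gene *Cxcl3* and the cytokine genes *Il1a* and *Inhba*. Without the mixed barcodes 124 genes were called, 70 higher and 54 lower.

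*Ccl3* and *Ccl4* themselves are the values that chose the cells. *Ccl3* stood at 131 CPM in members and 6880 in Ccl3/Ccl4-high cells, and *Ccl4* at 55.6 and 5813. These ratios describe the choice and nothing else.

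*Retnlg*, which encodes a resistin-like secreted protein made by mature neutrophils, stood at 7959 CPM (7689–8235) in LIP members, 3453 (3307–3605) in Ccl3/Ccl4-high cells and 12563 in granule-gene-rich cells. The log2 ratio of members over Ccl3/Ccl4-high cells was 1.20 (1.12–1.28). *Retnlg* is 1 of the 6 gate genes, so its UMIs helped to admit cells of both classes. Gated on the other 5 genes, LIP held 106 members instead of 114 and 161 Ccl3/Ccl4-high cells instead of 163. The shares of cells with a *Retnlg* UMI given below are therefore partly set by the gate. Per cell it ran from 0 through a median of 2.35 to 57.4 UMIs per 1000 in members and from 0 through 1.05 to 44.0 in Ccl3/Ccl4-high cells, so the ranges overlapped almost wholly. Thinned to 1000 UMIs per cell, it had a UMI in 72.8% of 103 members and 61.3% of 155 Ccl3/Ccl4-high cells, and in 2.04% of 98 keratinocytes, which should lack it. Unthinned, 98 of 114 members and 126 of 163 Ccl3/Ccl4-high cells had a *Retnlg* UMI.

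Granule genes lay on both sides. *Mmp8* stood at 353 CPM in members and 154 in Ccl3/Ccl4-high cells (log2 ratio 1.19, 0.81–1.58), and *Mmp9* at 1214 and 773 (0.65, 0.47–0.84). The lysozyme gene *Lyz2* had a ratio of 0.38 (0.23–0.52), and *Lcn2*, a siderophore-binding protein gene of specific granules, one of −0.54 (−0.66 to −0.41). Of the 12 genes in the specific granule list 5 could be compared: 1 (*Mmp8*) was 2-fold higher and none 2-fold lower, with 2 intervals above 0 and 1 below and a median of 0.08, near that of all genes. Of 8 genes compared on the gelatinase granule and secretory vesicle list none was 2-fold higher and 2 were 2-fold lower (*Slc11a1*, a metal transporter gene, at −1.01 and *Cd14* at −1.07), with 2 intervals above 0, 4 below and a median of −0.35. The other genes named on the higher side stood at 94.3 to 401 CPM in members: the linker histone gene *Hist1h1c* (1.59), the homeobox gene *Hlx* (1.67), *Ifitm6* (1.23), the D-type cyclin gene *Ccnd3* (1.44) and *Cpne3*, which encodes a calcium-dependent lipid-binding protein (1.66).

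The 4 largest ratios, of the globin genes *Hba-a1* (6.95), *Hba-a2* (6.89), *Hbb-bs* (6.04) and *Hbb-bt* (6.14), came from the erythroid barcode. It held 3197 of the 3214 *Hba-a1* UMIs of members. Without the mixed barcodes the 4 ratios were −0.52, 0.45, 0.13 and 0.48. The alpha-globin pair and the beta-globin pair are near-identical copies whose reads may be split between them.

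*Ccl3* and *Ccl4* are left out of the count of chemokine genes, since they chose the cells. Of the 8 others on the list 5 could be compared, of which 3 were 2-fold lower, 4 had intervals below 0 and 1 above, and the median log2 ratio was −1.13 against 0.11 over all genes. *Cxcl3*, a CXCR2 ligand, stood at 609 CPM in members and 2040 in Ccl3/Ccl4-high cells (−1.74, −1.94 to −1.55). *Cxcl1*, another CXCR2 ligand, had a ratio of −1.13 (−1.81 to −0.49), and the interferon-induced *Cxcl10* one of −1.92 (−3.21 to −0.81). *Ccl6* was the exception at 0.18 (0.03–0.33), an interval that also held the median of all genes.

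*Cxcl2*, whose product attracts further neutrophils through CXCR2, stood at 15591 CPM (15212–15976) against 30226 in Ccl3/Ccl4-high cells, a log2 ratio of −0.96 (−1.0 to −0.91). It was present in both classes. The thinned share of cells with a UMI was 91.3% of members and 99.4% of Ccl3/Ccl4-high cells, with 26.7% of granule-gene-rich cells and 6.12% of keratinocytes. Per cell it ran from 0 through a median of 10.3 to 84.5 UMIs per 1000 in members and from 0 through 21.0 to 143 in Ccl3/Ccl4-high cells.

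*Il1b* differed less. It stood at 11371 CPM (11048–11700) against 13895 in Ccl3/Ccl4-high cells, a log2 ratio of −0.29 (−0.34 to −0.24), and had a UMI in 109 of 114 members. Its per-cell median was 9.45 UMIs per 1000 (0–79.4) in members and 10.5 (0.254–69.7) in Ccl3/Ccl4-high cells, against 0.0700 in granule-gene-rich cells. The thinned shares were 93.2% of members, 96.1% of Ccl3/Ccl4-high cells and 0 of 98 keratinocytes.

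Among the other cytokine genes some were much lower in members and none was 2-fold higher. Of 14 genes of cytokines and their inhibitors 10 could be compared, of which 3 were 2-fold lower, 7 had intervals below 0 and none above, with a median of −0.50. *Il1a* stood at 186 CPM against 672 (−1.85, −2.22 to −1.50), and 31 of its 77 UMIs in members lay in 1 cell. *Il1rn*, which encodes the interleukin-1 receptor antagonist, stood at 1777 against 3989 (−1.17, −1.29 to −1.05), and *Csf1*, the macrophage growth factor, had a ratio of −1.13 (−1.61 to −0.66). *Tnf* stood at 592 against 972 (−0.71, −0.94 to −0.50), and its thinned share was 28.2% of members against 53.5% of Ccl3/Ccl4-high cells. *Osm*, an interleukin-6 family cytokine gene, stood at 310 (258–368) against 352 (306–402), a ratio of −0.18 whose interval (−0.51 to 0.14) held 0; 38 of 114 members and 75 of 163 Ccl3/Ccl4-high cells had a UMI. *Inhba*, which encodes the activin A subunit, had 4 UMIs in members and 175 in Ccl3/Ccl4-high cells, the latter in 22 cells (−4.91, −6.80 to −3.53).

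**Figure D2:**
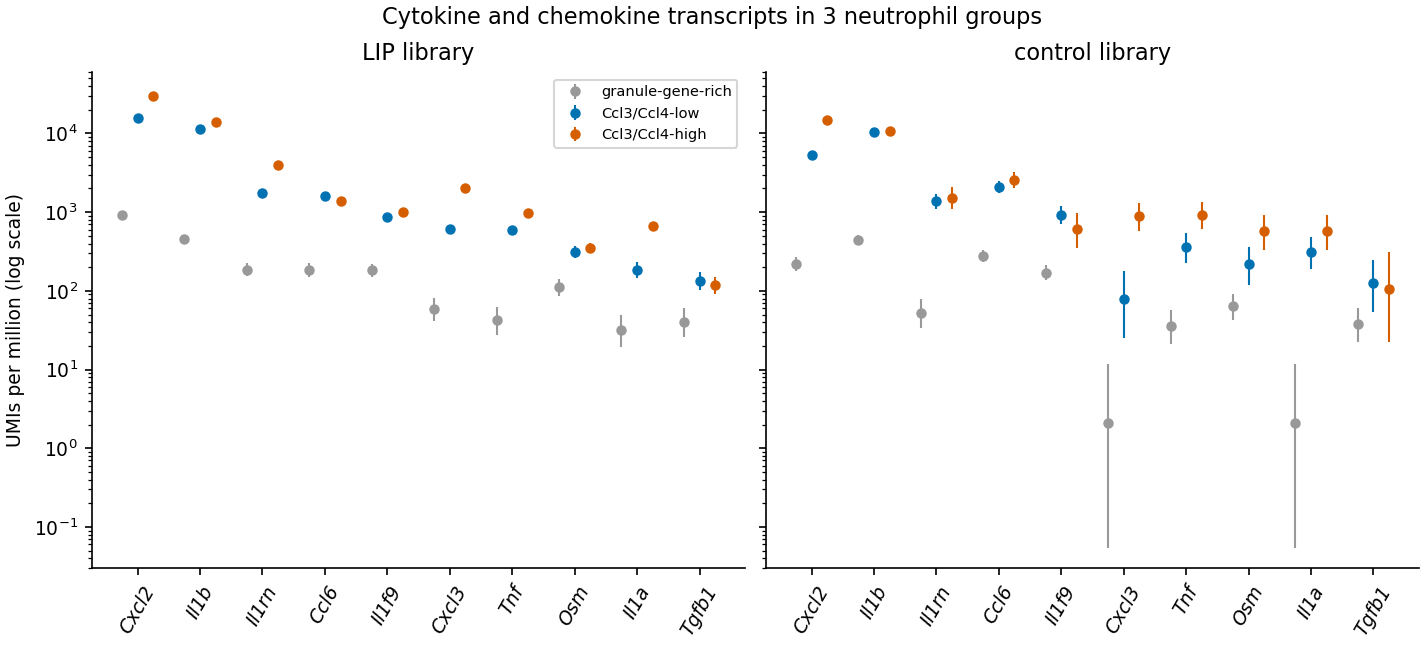
Levels of cytokine and chemokine genes by class and library. Points are summed CPM on a log axis and bars are exact 95% Poisson intervals for members, Ccl3/Ccl4-high and granule-gene-rich cells. In LIP, Il1b of members (11371) lies close to that of Ccl3/Ccl4-high cells (13895), whereas Cxcl2 lies lower (15591 against 30226).

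Genes of receptors for migration and adhesion split by name. Of 14 on the list 13 could be compared, none was 2-fold different, 5 intervals lay above 0 and 4 below. Those higher included *Cxcr2*, the receptor for CXCL1 and CXCL2 (0.64, 0.44–0.83; a gate gene), *Cxcr4*, the bone marrow retention receptor (0.49, 0.20–0.78), *Selplg*, the P-selectin ligand gene (0.55, 0.33–0.76), and *Itgam*, the CD11b gene (0.53, 0.20–0.87). Lower were *Ccrl2*, an atypical chemokine receptor (−0.66), *Icam1* (−0.48), *Ccr1*, a receptor for CCL3 (−0.33, −0.49 to −0.16), and *Cd44* (−0.14). The thinned share of *Cxcr4* was 38.8% of members against 22.6% of Ccl3/Ccl4-high cells.

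Genes of microbe sensing were lower or level. Of 9 compared, 1 was 2-fold lower, 5 intervals lay below 0 and none above. *Cd14*, the endotoxin co-receptor gene, stood at 3666 CPM in members and 7722 in Ccl3/Ccl4-high cells (−1.07, −1.16 to −0.99), and *Nlrp3*, the inflammasome sensor gene, at 1746 and 2381 (−0.45). *Tlr2* had a ratio of −0.14 whose interval (−0.36 to 0.09) held 0. In the NF-kappaB list, 13 of 13 genes could be compared and 1 (*Nfkb2*, −1.16) was 2-fold lower; 5 intervals lay below 0 and none above, and *Nfkbia*, the inhibitor gene induced by NF-kappaB itself, had −0.41 (−0.49 to −0.33).

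Survival and stress genes were mostly lower in members. Of 7 survival and apoptosis genes compared, 3 were 2-fold lower and 6 intervals lay below 0, with a median of −0.94. The *Bcl2a1* copies, which encode near-identical anti-apoptotic proteins and may share reads, had ratios between −1.32 and −0.94, *Cflar*, the caspase-8 inhibitor gene, −1.04, and *Mcl1*, the main survival factor of neutrophils, −0.05 (−0.16 to 0.06). In the oxidative stress and iron list 5 of 6 intervals lay below 0. *Fth1*, the ferritin heavy chain gene, stood at 25808 CPM against 46859 (−0.86, −0.89 to −0.83), and *Sod2*, the mitochondrial superoxide dismutase gene, had −1.19 (−1.51 to −0.88). The checkpoint ligand gene *Cd274* had −0.88 (−1.27 to −0.49).

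Some NADPH oxidase and leukotriene genes went the other way in LIP. Of 5 oxidase genes compared, 3 intervals lay above 0 and none below, with a median of 0.46: among these, *Ncf4* had 0.46 (0.13–0.79) and *Rac2* 0.47 (0.28–0.65), and none was 2-fold higher. *Alox5ap*, which presents arachidonic acid to 5-lipoxygenase, had 0.49 (0.33–0.66) and *Alox5* itself 1.02 (0.20–1.86). In contrast *Ptgs2*, the inducible prostaglandin synthase gene, had −0.79 (−0.96 to −0.61) and *Acod1*, the itaconate synthase gene, −0.75 (−0.83 to −0.66). Of 10 glycolysis and hypoxia genes compared 8 intervals held 0, and 1 gene (*Hk2*) was 2-fold lower.

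Immediate-early genes, which can also respond to tissue dissociation, did not move one way. Of 10 compared none was 2-fold different, 4 intervals lay above 0 and 4 below; *Junb* had 0.33 (0.22–0.44) and *Jun* −0.74 (−1.13 to −0.36). Of 15 cytokine receptor genes 9 intervals held 0, near the share over all genes, with *Ifngr1* (0.84, 0.35–1.33) and *Il17ra* (0.72, 0.24–1.20) higher and *Tnfrsf1b* (−0.73, −1.02 to −0.45) lower. *Cebpd* led the transcription factors at 0.87 (0.45–1.29), while *Cebpb* was level at −0.01 (−0.10 to 0.07). Of 10 interferon-stimulated genes 5 intervals held 0, and *Rsad2* (−1.59) was 2-fold lower.

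The remaining genes named on the lower side, apart from *Thbs1*, had few UMIs in members. *Thbs1*, which encodes the matrix protein thrombospondin-1, stood at 834 CPM against 2740 (−1.72, −1.89 to −1.55), with 40 of 114 members and 96 of 163 Ccl3/Ccl4-high cells carrying a UMI. *Hilpda*, a hypoxia-induced lipid droplet gene, had 9 UMIs against 76, with 7 of the 9 in 1 member; its log2 ratio was −2.53, and −4.61 without the mixed barcodes. *Saa3*, an acute-phase gene, had 17 against 127, with 87 of the 127 in 1 Ccl3/Ccl4-high cell. *Gm12840* had 10 UMIs against 171, and *2010005H15Rik* had 3 against 69, with 29 of the 69 in 1 cell.

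In the control library the same comparison rested on 15 members and 8 Ccl3/Ccl4-high cells. Of 246 genes with at least 50 UMIs, 7 (2.85%) were 2-fold higher in members and 33 (13.4%) 2-fold lower, with a median log2 ratio of −0.26. After centring on that median the split was 19 higher and 16 lower. *Retnlg* stood at 28064 CPM (26784–29389) in members and 4855 in Ccl3/Ccl4-high cells (2.53, 2.28–2.79); 609 of the members' 1805 UMIs lay in 1 cell. Its per-cell values ran from 2.24 through a median of 20.2 to 84.9 UMIs per 1000 in members and from 0 through 2.48 to 21.3 in Ccl3/Ccl4-high cells, so the ranges overlapped. *Mmp8*, also a gate gene, had a ratio of 1.71 (0.75–2.83) and *Wfdc21*, a secreted whey acidic protein gene, 2.69 (1.81–3.72). The gate genes *S100a8* and *S100a9*, subunits of calprotectin, had 1.5 (1.40–1.59) and 1.37 (1.29–1.46), larger than their 0.22 and 0.12 in LIP. *Pglyrp1* (1.05), *Lyz2* (0.99), *Lcp1*, an actin bundler gene (0.76), *G0s2* (0.71) and *S100a6* (0.47) followed. No gene could be named on the lower side, since the naming asked for 10 cells with a UMI in the higher class and that class had 8.

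Among list genes of control, *Cxcl2* had −1.48 (−1.68 to −1.27), *Cd14* −1.23 (−1.67 to −0.79), *Acod1* −1.21 (−1.62 to −0.80) and *Fth1* −0.90 (−1.04 to −0.76), each on the same side as in LIP. *Il1b* stood at 10402 CPM in members and 10709 in Ccl3/Ccl4-high cells (−0.04, −0.24 to 0.16), above the median ratio of all genes. Some genes lay on the other side of 0 from LIP: *Selplg* had −1.09 (−1.77 to −0.40), *Cxcr2* −0.34 (−0.93 to 0.27) and *Cxcr4* −0.48 (−1.15 to 0.21), the last 2 with intervals that held 0. The immediate-early genes *Atf3* (−3.07, −4.13 to −2.13) and *Egr1* (−1.99, −2.65 to −1.36) were lower in members of control, against −0.59 and −0.26 in LIP. These were the 2 genes that were 2-fold lower among 5 compared on that list in control. Of the 5 intervals 3 lay below 0 and 2 held 0, with a median of −0.73. Over all genes compared in control 31.3% of intervals lay below 0, and the median was −0.26. All 4 NADPH oxidase genes compared in control had intervals that held 0, with a median of −0.17. Over all genes compared in control, 62.2% of intervals held 0. Whether the ratios differed between the libraries was not tested.

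Between conditions, members of LIP and members of control were compared as 114 against 15 cells of 1 library each. Of 1134 genes with at least 50 UMIs, 126 (11.1%) were 2-fold higher in LIP and 38 (3.35%) 2-fold lower, with a median log2 ratio of 0.08. The interval lay above 0 in 13.8% of these genes and below 0 in 8.55%. Of 3 chemokine genes compared outside the rule, *Cxcl2* and *Cxcl3* were 2-fold higher in LIP and *Ccl6* had −0.41 (−0.68 to −0.13). The lower side included the granule genes *Mmp8*, a gate gene, and *Lyz2*. The condition cannot be told apart from the library or the pool of mice.

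*Cxcl2* stood at 15591 CPM in LIP members and 5380 (4828–5977) in control members, a log2 ratio of 1.54 (1.38–1.70). Per cell the control members ran from 0 through a median of 2.24 to 23.9 UMIs per 1000, within the LIP range. *Cxcl3* had a ratio of 2.97 (1.73–4.61) on 252 against 5 UMIs. *Spp1*, the osteopontin gene, had 3.75 (1.88–6.81) on 173 against 2 UMIs, in 25 of 114 and 2 of 15 cells, and *Icam1*, the ligand of leukocyte integrins, 3.37 (1.49–6.43) on 133 against 2. *Ifrd1*, an interferon-related co-regulator gene, had 2.81 (1.56–4.44) on 225 against 5 UMIs. *Upp1*, a uridine phosphorylase gene, had 3.77 (1.26–9.09) on 88 UMIs against 1. The globin genes completed that side, and the erythroid barcode again held most of their UMIs in LIP members. Their ratios without the mixed barcodes were −0.10 (*Hba-a2*), −1.50 (*Hba-a1*) and −0.72 (*Hbb-bs*). *Hbb-bt* stayed higher in LIP at 2.06, on 1 UMI in control members. Without the mixed barcodes 144 genes were called, 117 higher and 27 lower.

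Among listed genes *Ccrl2* (1.51, 1.04–2.03), *Cd14* (1.42, 1.11–1.75), *Nlrp3* (1.26, 0.83–1.71), *Acod1* (1.18, 0.89–1.49), *Ifitm1* (1.17, 0.90–1.45) and *Cd274* (2.58, 0.68–5.65) were 2-fold higher in LIP members. *Fth1* had 0.89 (0.79–0.99). The stefin copies *Stfa1* (1.81), *Gm5483* (1.29) and *Stfa2l1* (1.22) were also higher, and their reads may be split between near-identical genes. *Il1b* had 0.13 (0.01–0.25), *Osm* had 0.51 with an interval (−0.29 to 1.42) that held 0, and *Tnf* had 0.73 (0.11–1.41) on 23 UMIs in control. *Il1b* had a UMI in 15 of 15 control members, with a per-cell median of 12.4 UMIs per 1000 (2.69–32.1) against 9.45 in LIP.

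On the lower side *Retnlg* had −1.82 (−1.90 to −1.73), from 28064 CPM in control to 7959 in LIP members, and *Mmp8* −1.72 (−2.14 to −1.30). *Lyz2* (−1.26), *Wfdc21* (−1.09) and *Mmp9* (−0.95, −1.22 to −0.68) were lower too. All 5 genes of the specific granule list that could be compared had intervals below 0, with a median of −0.80. Of these, 2 were 2-fold lower, *Lyz2* and the gate gene *Mmp8*. The further genes were *Mgst1*, a microsomal glutathione transferase gene (−1.53), *Notch1* (−1.58), *Cnn2*, a calponin gene (−1.32), *Dhrs7* (−1.27) and *Kdm7a*, a histone demethylase gene (−1.18). Genes of the oxidase (5 of 5) and of glycolysis (9 of 9) had intervals that held 0, as had 77.6% of all genes compared. The keratinocyte gene *Krt14*, which neutrophils should lack, had −0.99 (−1.80 to −0.11); its part in the other differences was not tested.

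**Figure D3:**
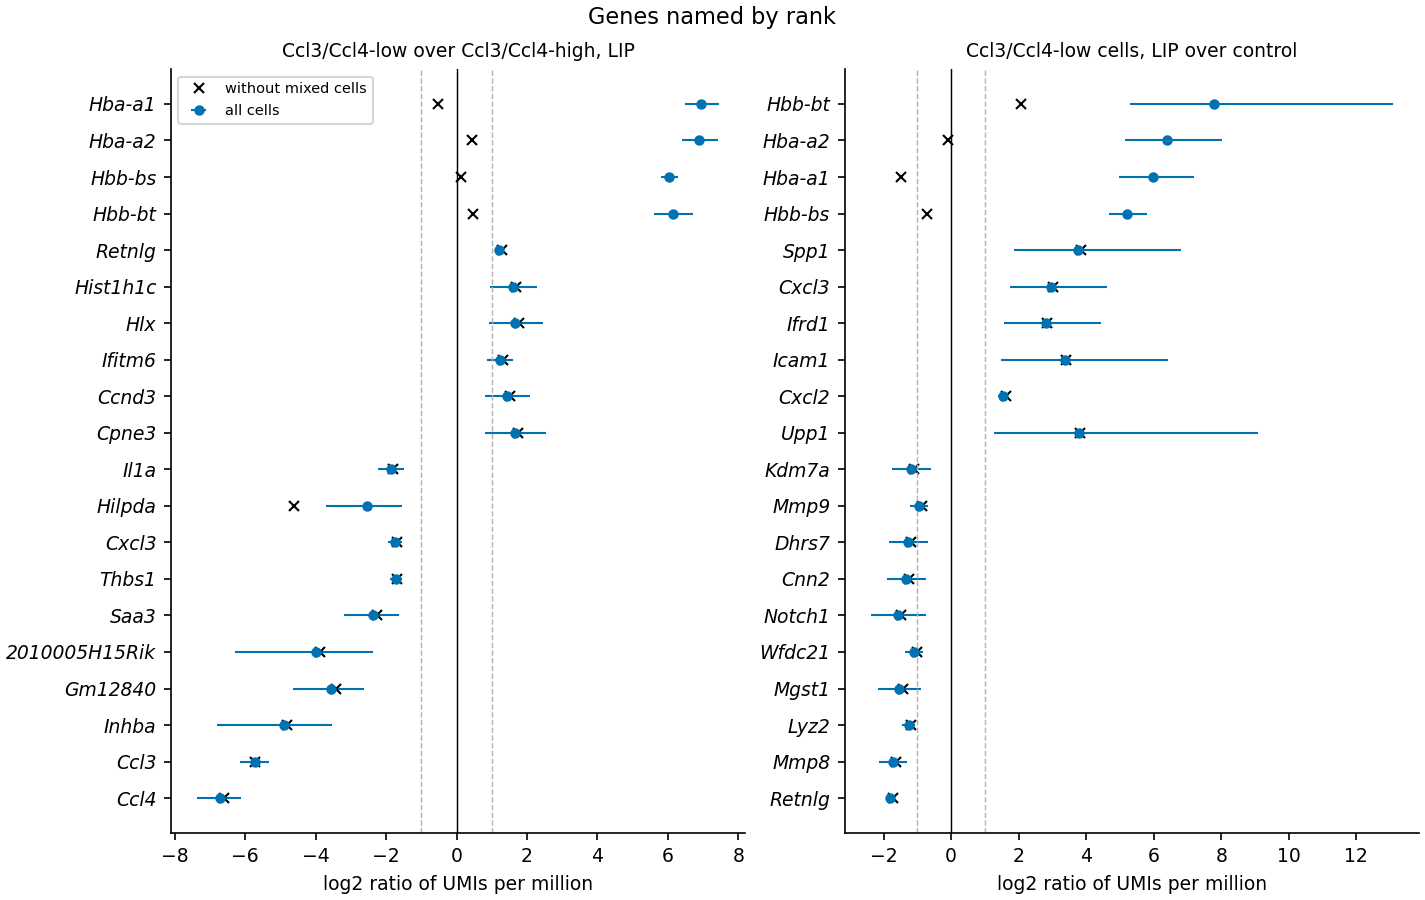
Log2 ratios of the genes named by rank, for LIP members over LIP Ccl3/Ccl4-high cells (left) and LIP members over control members (right). Circles are ratios of CPM over all cells with exact 95% counting intervals, crosses are ratios without the mixed barcodes, and dashed lines mark 2-fold. Retnlg lies at 1.20 on the left and −1.82 on the right, and the crosses of Hba-a1 and Hbb-bs lie near or below 0 in both panels.

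Against the granule-gene-rich cells of LIP the members differed in many more genes, and *Camp*, *Ngp* and *Ltf* were set by the rule. Of 1972 genes with at least 50 UMIs, 609 (30.9%) were 2-fold higher in members and 271 (13.7%) 2-fold lower, with a median of 0.31. After centring on that median the split was 466 higher and 390 lower. Granule-gene-rich cells carried a median of 11430 UMIs against 3506.5 in members, and the part of that difference in these counts was not tested.

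*Il1b* stood at 11371 CPM against 453 (4.65, 4.47–4.83), and *Cxcl2* at 15591 against 916 (4.09, 3.96–4.22). The size of these ratios depends on the processing. Over all settings tried that of *Il1b* ranged from 1.99 to 5.84 and that of *Cxcl2* from 1.45 to 5.96. All 8 cytokine genes compared were 2-fold higher in members, as were all 8 microbe-sensing genes and all 11 NF-kappaB genes. *Tgm2*, a transglutaminase gene (6.63, 5.06–8.92), *Steap4*, a metalloreductase gene (6.56, 4.67–9.62), *Dusp2*, a phosphatase gene (6.04, 4.66–7.93), and *Ccrl2* (5.12, 4.58–5.72) led beside the globin genes. The ratio of *Ccrl2* ranged from 2.41 to 6.30 over the settings. *Igfbp6* had 62 UMIs in members and none in granule-gene-rich cells, which is at least 29.7-fold higher against a floor of 3 counts over the class.

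On the lower side of that comparison, *Chil3*, a chitinase-like protein gene of immature neutrophils, had 2 UMIs in members and 2866 in granule-gene-rich cells. *Cebpe*, the transcription factor gene of granule formation, had 1 against 151, and *Cybb*, the catalytic oxidase subunit gene, 16 against 1077. *Fcnb*, a ficolin gene of early neutrophils, had 0 against 176, at least 40.8-fold lower against the same floor. *Lta4h* (−5.56), whose product makes leukotriene B4, *Itgb2l* (−5.96) and *Adpgk* (−4.75) were lower as well. *Retnlg* stood at 7959 against 12563 CPM. All 6 cell-cycle genes compared were 2-fold lower in members.

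Members differed among themselves. Without the mixed barcodes, 72 LIP members had no UMI of *Ccl3* or *Ccl4* and 40 had at least 1, with median depths of 3220.5 and 4002 UMIs; a shallower cell is more likely to show 0. Of 968 genes compared between them, 9 (0.930%) were 2-fold higher and 17 (1.76%) 2-fold lower in the 40 cells. *Retnlg* did not fall step by step with the chemokines. It stood at 6844 CPM (6503–7199) in the 72 cells, 10716 (10225–11225) in the 40 cells and 3457 (3310–3608) in the 162 Ccl3/Ccl4-high cells. The 40 cells included a cell of 10132 UMIs with *Retnlg* at 42.0 per 1000, which weighs on their sum. Per-cell medians of *Retnlg* had that order too, at 2.05, 3.11 and 1.06 UMIs per 1000. Summed *S100a8* had the same order (61120, 90477 and 59626 CPM), as had summed *Mmp8* (219, 587 and 154). *Wfdc21* was also highest in the 40 cells (884, 1750 and 958).

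*Cxcl2* stood at 16888 CPM in the 72 cells, 16128 in the 40 and 30254 in the Ccl3/Ccl4-high cells, but its per-cell medians were 9.57, 13.5 and 21.1 UMIs per 1000, so the summed level and the median differ in whether the 40 cells lay above the 72. The same held for *Cd14* (3969, 3740 and 7729 CPM, with medians of 2.52, 3.60 and 6.04) and *Il1rn* (1937, 1858 and 3991 CPM, with medians of 1.05, 1.52 and 2.24), and summed *Fth1* went up at each step (24816, 30153 and 46897). *Il1b* was lowest in the 40 cells (13803, 9823 and 13856), as were *Tnfaip2*, an NF-kappaB target gene (2288, 1097 and 1777), and the hyaluronan receptor gene *Cd44* (2260, 1277 and 1900). The cells share 1 library, so these steps are a description.

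**Figure D4:**
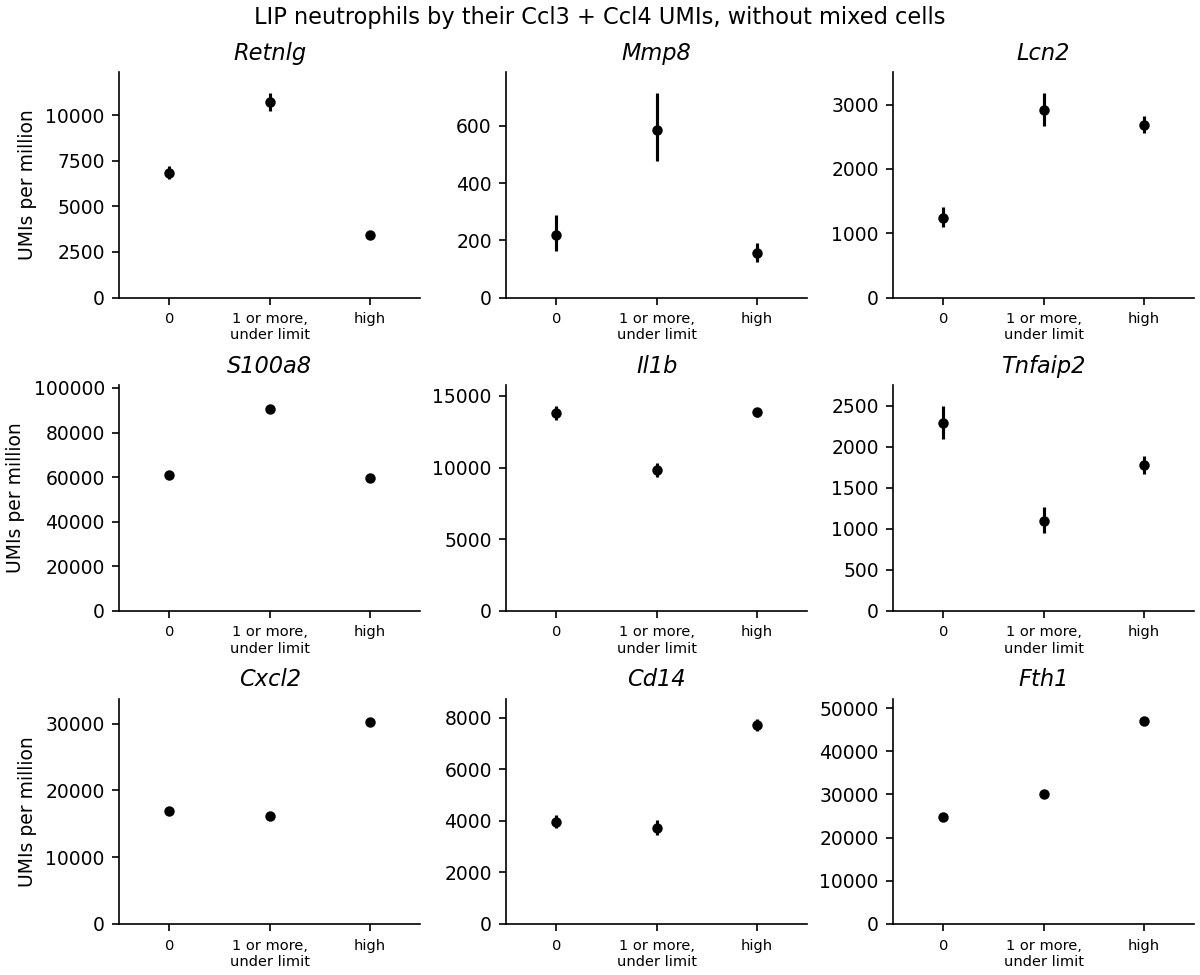
Levels of selected genes in LIP members with no Ccl3 or Ccl4 UMI (72 cells), members with at least 1 (40 cells) and Ccl3/Ccl4-high cells (162), without the mixed barcodes. Points are CPM on linear axes from 0, with exact 95% Poisson intervals. Retnlg is highest in the middle class (10716) and Cxcl2 in the last (30254).

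Over single cells, *Retnlg* and *Il1b* per 1000 UMIs had a Spearman correlation of −0.25 in 112 LIP members and −0.61 in 15 control members, and *Retnlg* and *Cxcl2* −0.18 and −0.56. *Retnlg* and *Mmp8* had 0.32 and 0.79, and *Il1b* and *Cxcl2* 0.38 and 0.44. Cells of a library share its depth and free RNA and values per 1000 UMIs share a total, so these are descriptions. The LIP correlations are weak in sparse counts and are no finding.

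**Figure D5:**
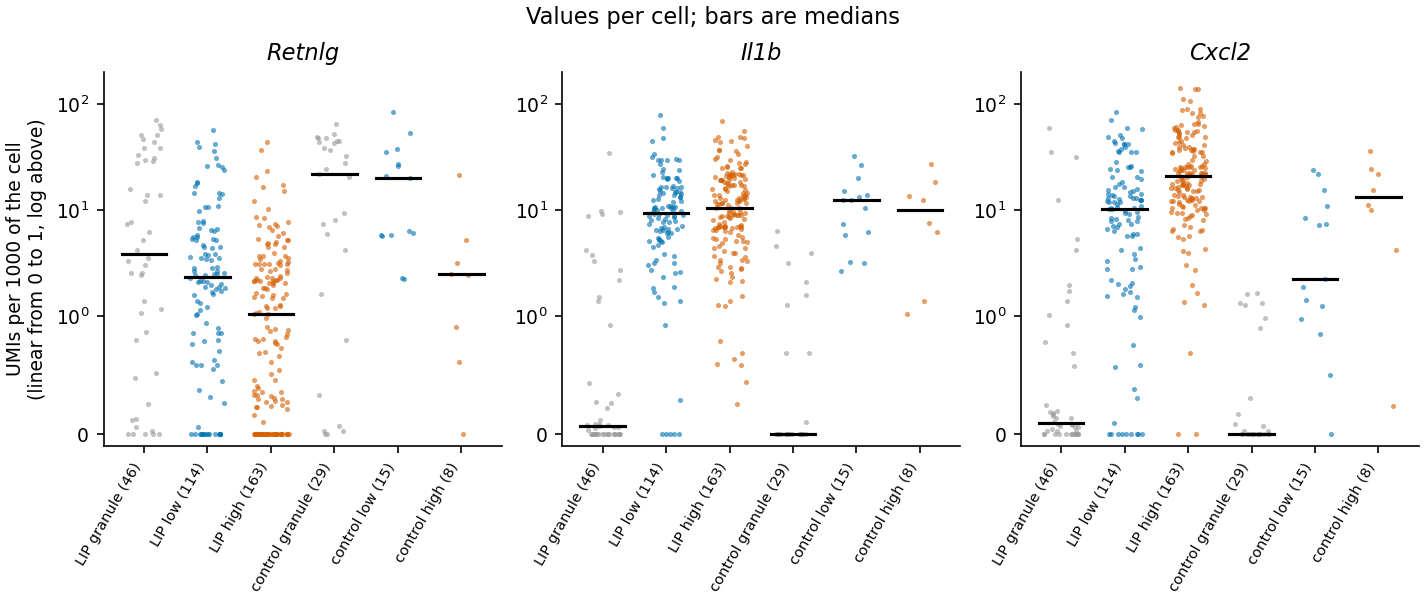
Retnlg, Il1b and Cxcl2 per 1000 UMIs in single neutrophils. Each point is a cell, grouped by class and library, and the black bar marks the median; the axis is linear from 0 to 1 and logarithmic above. Retnlg of control members (median 20.2) lies above most LIP members (median 2.35), while Il1b (12.4 and 9.45) overlaps.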

How the data were processed

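Single-cell RNA was captured with 10x Genomics 3′ chemistry in 1 LIP and 1 control library. Per the labels and the file headers the authors aligned reads to mm10 with Cell Ranger (the matrix header gives 3.1.0) and the counts they deposited are unnormalized UMIs for each of 31053 genes in each barcode. By limits that the study's methods also state, cells were kept with 200 to 7500 genes, at most 60000 UMIs and at most 10% mitochondrial UMIs, which left 936 of 1212 LIP barcodes (14236327 UMIs before, 10560109 after) and 883 of 1169 control barcodes (16472915 and 13407122). Doublets were sought with Scrublet in scanpy 1.11.5 and not removed. Members, comparison classes and the 30 gene lists were chosen with earlier results of these data known.

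Levels (CPM) are a gene's UMIs over all cells of a class divided by the UMIs of that class. Exact Poisson intervals for levels, Clopper-Pearson intervals for shares and conditional exact intervals for ratios (scipy 1.17.1, Python 3.11.15) were computed at 95%; reads without replicate libraries allow no test. A ratio against 0 used a floor of 3 counts over the class. Genes were called at 2-fold with at least 50 UMIs over both classes. Named by rank were the 10 highest and 10 lowest genes by the interval bound nearest 0 with a UMI in at least 10 cells of the higher class, and further the genes of the lists. Mixed barcodes held 5 or more UMIs per 1000 of a T cell, B cell, endothelial, fibroblast, erythroid or granulocyte list of another kind. Shares of cells were compared after thinning each cell to 1000 UMIs, which left out shallower cells. The steps were tested on simulated counts. Settings tried are given with the limits. Values of some listed genes are not reported here.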

Additional observations from a re-analysis of the deposited data

Results flagged for a closer look

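In 3 genes the ratio of members over Ccl3/Ccl4-high cells lay on opposite sides of 0 in the 2 libraries, with intervals that did not hold 0 in either. *G0s2*, a lipolysis inhibitor gene, had a log2 ratio of −0.20 in LIP and 0.71 in control. *Selplg*, the P-selectin ligand gene, had 0.55 in LIP and −1.09 in control. *Junb*, an AP-1 subunit gene, had 0.33 in LIP and −0.73 in control. The differences between the libraries were not tested, and the control values rest on 15 and 8 cells.

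Outside the cells analysed, 3 LIP barcodes left out by the filters met the limits of the neutrophil gate and of the members, 2 of them left out by the mitochondrial limit alone, and 0 control barcodes did.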

How the results depend on the processing

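With 1 library per condition no library could be left out. No paired analysis was possible because each condition holds 1 pooled library. Of 28 recomputed shares of members among kept cells 25 stayed within the interval of the reported share; the LIP share moved to 15.8% at a mitochondrial limit of 5%, 15.1% at a *Ccl3* and *Ccl4* limit of 2 per 1000, and 10.1% when cells were gated after thinning. Of 72 recomputed counts of 2-fold genes 59 stayed within 1.5 times the reported count. The minimum of UMIs moved all 4: from 128 to 385 (20 UMIs) and 29 (200 UMIs) for members over Ccl3/Ccl4-high cells in LIP, from 40 to 148 and 9 in control, from 880 to 1632 and 284 over granule-gene-rich cells, and from 164 to 480 and 40 for LIP over control members. Gating after thinning gave 81 in the first comparison and 538 in the third. An *S100a8* and *S100a9* minimum of 1% gave 171 in control and 294 between libraries, and a granule limit of 2 gave 71 in control.

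Of 2735 recomputed log2 ratios 2327 stayed within their counting interval, 396 moved, and 12 that were 2-fold or more changed sign. All but 1 of the 12 were globin genes, which the erythroid barcode sets. *Hba-a1* over Ccl3/Ccl4-high cells in LIP became −0.39 (*S100a8* and *S100a9* at least 5%), −0.52 (gated after thinning) and −0.52 (without the mixed barcodes, a setting added after the data were seen). Between libraries, in the same order, *Hba-a1* became −1.65, −1.77 and −1.50 and *Hbb-bs* −0.56, −0.50 and −0.72, and *Hba-a2* became −0.13 and −0.10 under the first and last. *Il1a* over granule-gene-rich cells became −0.15 when each cell weighed the same; the cause was not tested. Over all settings the ratio of *Retnlg* over Ccl3/Ccl4-high cells in LIP ranged from 0.76 to 1.48, that of *Il1b* from −0.40 to −0.15 and that of *Osm* from −0.30 to 0.32, so *Osm* has no settled direction. Of 12 thinned shares of LIP cells 9 moved with the depth of thinning (500 or 2000 UMIs).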
